A study of Gallus gallus with 50 samples.

Results

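Mitochondrial ribosomal proteins are encoded in the nucleus, made in the cytosol and imported into mitochondria, where they join ribosomal RNAs of the mitochondrial genome to form the mitochondrial ribosome. That ribosome makes only the few respiratory chain and ATP synthase subunits that the mitochondrial genome still encodes, so its large subunit (MRPL genes) and small subunit (MRPS genes) serve energy supply. Some of its proteins descend from those of the bacterial ribosome, and others were added in mitochondria. The intestinal epithelium renews itself constantly and spends much energy on absorption, and its absorptive cells are rich in mitochondria.

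The genes described here are all those on the array whose probe sets carry a single symbol beginning with MRPL or MRPS and a number. They were 67 of the 13009 genes with a single symbol, and 96 probe sets measured them. Where a gene had several, the one with the highest signal averaged over all 50 arrays stood for it. For 12 genes the probe set used is of a kind that may also read related transcripts. MRPL3, MRPL15, MRPL51, MRPS11, MRPS16 and MRPS35 are among them. Of the 67 genes, 45 belong to the large subunit, counting MRPS30 and MRPS18A, which mammalian structures place there, and 21 to the small subunit. MRPS36 was kept apart, since later work in mammals places its protein in the 2-oxoglutarate dehydrogenase complex of the citric acid cycle. Of the ribosomal proteins, 38 were taken here as having a bacterial counterpart and the other 28 as specific to mitochondria. The signal of 63 genes was above the median of all probe sets, as it was for 9067 of all genes, called brighter genes here; the dimmer ones were MRPL30, MRPL33, MRPL34 and MRPL47.

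The study asked how lysophospholipids in feed alter expression along the small intestine. Scraped mucosa of the jejunum, the middle stretch of the small intestine, and of the ileum, its last stretch, was taken on day 10 from 25 male Cobb 500 broiler chickens. LPC-low feed held 9.5 g/T of lysophosphatidylcholine (LPC), a detergent-like phospholipid with a single fatty acid chain, given as 500 g/T of purified LPC on a carrier, and LPC-high feed held 19 g/T, given as 1000 g/T. In lysolecithin-low and lysolecithin-high feed those amounts, 9.5 and 19 g/T, came with 250 and 500 g/T of lysolecithin, the mixture from which the LPC was isolated. Control feed had no supplement. Each feed had 5 birds, each bird gave 1 array per segment, and the labels spread the birds of every feed over 3 batches. A batch held 1 or 2 birds of each feed, so values within a batch rest on very few birds. The labels do not say whether each feed was confined to 1 pen, so pen and feed cannot be told apart, and all comparisons with the control share its 5 birds.

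Several arrays went against their labels. A score was formed from genes that separate the segments. It is higher towards the jejunum, and its midpoint of -1.80 divided the sides. By that rule 4 arrays lay on the other segment's side. They were the jejunum arrays of control replicate 2 and LPC-low replicate 4, and the ileum arrays of LPC-low replicate 1 and lysolecithin-high replicate 4. The 2 arrays of LPC-low replicate 4 also did not match as 1 bird, which put 5 arrays of 4 birds in doubt. The score of the jejunum arrays ran from 1.82 to 5.41 in lysolecithin-high birds and from -5.05 to 5.01 in control birds. Control jejunums 1 and 4, not in doubt, scored -1.27 and 0.07, and control jejunums 3 and 5 scored 4.85 and 5.01. LPC-low jejunums 1 and 5 scored -1.40 and -0.38, below 0 but above the midpoint. The main results include the arrays in doubt, and values without them are given for some results only. Values are log2 signals, on which a difference of 1 is 2-fold. A gene was called different at an adjusted p of at most 0.05 by limma, a linear model with shared variance estimates, with Benjamini-Hochberg adjustment over all 38382 probe sets. The 95% intervals given below are for single genes and are not adjusted, so one can exclude 0 without a call.

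In a comparison within birds, 29 of the 67 mitochondrial ribosomal protein genes were higher in the jejunum than in the ileum and none was lower, while 38 did not pass the test. Over all probe sets 19.7% were called in either direction and 9.92% were called higher, and among brighter genes 19.9% were called higher. The median difference over the 67 genes was 0.13, against 0.02 over brighter genes, and 57 of the 67 genes had a difference above 0, against 55.3% of brighter genes. All 5 jejunum markers were higher and all 5 ileum markers lower in the jejunum. These markers were chosen with earlier results of these data known, so this does not test the labels. In scraped mucosa, a larger share of cells rich in a transcript and more of it per cell cannot be told apart.

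Both subunits took part. Of the large-subunit genes 18 of 45 passed and of the small-subunit genes 10 of 21 passed, as did MRPS36. By origin, 14 of 38 genes with a bacterial counterpart and 14 of 28 genes specific to mitochondria passed. The medians were 0.13 for the large subunit, 0.11 for the small subunit, 0.11 for genes with a bacterial counterpart and 0.18 for those specific to mitochondria. The difference between these classes was not tested.

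The leading large-subunit gene was MRPL15, whose product is the counterpart of a bacterial large-subunit protein. Its signal had a lowest value of 6.52, a median of 7.44 and a highest value of 8.41 in 25 jejunum arrays, against 5.92, 6.61 and 8.00 in 25 ileum arrays. The ranges overlapped, but 22 of 25 birds had more in their jejunum. The exceptions were control replicate 2 and LPC-low replicates 1 and 4, all birds in doubt. The ileal value of 8.00 came from lysolecithin-high replicate 4, an array with jejunal markers. The difference was 0.79 ± 0.12 (SE, n = 25 birds; limma adjusted p = 3.69e-05). The other 2 probe sets of MRPL15 gave 0.03 and 0.01 and did not pass, so the difference belongs to 1 of its 3 probe sets, one that may also read related transcripts.

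Other large-subunit genes showed smaller differences. MRPL39, a protein specific to mitochondria, was higher by 0.47 ± 0.09 in the jejunum (limma adjusted p = 0.000426). MRPL40, also specific to mitochondria, was higher by 0.43 ± 0.08 (limma adjusted p = 0.000149). MRPL32, a bacterial counterpart that is cut by a mitochondrial protease before assembly in mouse and yeast, was higher by 0.38 ± 0.11 (limma adjusted p = 0.0165). The other large-subunit genes past the test were MRPL3, MRPL18, MRPL20, MRPL27, MRPL28, MRPL42, MRPL44, MRPL46, MRPL48, MRPL51, MRPL53, MRPL58, MRPS18A and MRPS30, with differences from 0.18 to 0.34. MRPL58 is known in human cells as a release factor-like protein that frees stalled ribosomes, and MRPL44 has a fold related to ribonuclease III.

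Among small-subunit genes, MRPS22 stood highest. It is specific to mitochondria, and mutations in the human gene impair mitochondrial translation. MRPS22 had a lowest value of 6.50, a median of 7.89 and a highest value of 8.76 in the jejunum, against 6.16, 7.41 and 8.23 in the ileum. The jejunum was higher in 22 of 25 birds, by 0.55 ± 0.11 (limma adjusted p = 0.000476). MRPS9, a bacterial counterpart, ran from 6.57 to 8.40 in the jejunum and from 6.37 to 7.93 in the ileum. The difference was 0.51 ± 0.09 and above 0 in 22 of 25 birds (limma adjusted p = 0.000297). For MRPS22 and MRPS9 the exceptions were again the birds in doubt, control replicate 2 and LPC-low replicates 1 and 4. MRPS14 (0.41), MRPS35 (0.38), MRPS27 (0.37), MRPS31 (0.36), MRPS5 (0.29), MRPS16 (0.21), MRPS11 (0.21) and MRPS17 (0.14) also passed. MRPS27 is an RNA-binding protein of the pentatricopeptide repeat family. MRPS36, the gene kept apart, was higher in the jejunum of 23 of 25 birds, by 0.40 ± 0.07 (limma adjusted p = 9.66e-05). Its exceptions were control replicate 2 and LPC-low replicate 4, both in doubt.

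The 10 genes with differences below 0 were MRPL30, MRPS2, MRPL41, MRPL14, MRPL50, MRPL54, MRPL1, MRPS23, MRPS33 and MRPS34, none of which passed with the probe set used. The lowest was MRPL30 at -0.16 ± 0.07 (limma adjusted p = 0.118). For MRPL50 the probe set used gave -0.04 and another passed as lower in the jejunum (-0.11; limma adjusted p = 0.0358). Probe sets of 1 gene did not always run the same way. For MRPL3 the probe set used gave 0.29 and another gave -0.30 (limma adjusted p = 0.0216), and for MRPL20 the probe set used gave 0.29 and another gave -0.12 (limma adjusted p = 0.0097). MRPL32, MRPL42, MRPS16 and MRPS27 each had another probe set below 0 that did not pass. When all probe sets of a gene were averaged, 29 genes passed, all higher, of which 26 were also called with the probe set used. MRPL3 (-0.03), MRPL20 (-0.01) and MRPS16 (-0.06) were below 0 and no longer passed, and MRPL37, MRPL38 and MRPS7 passed in their place.

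**Figure D1:**
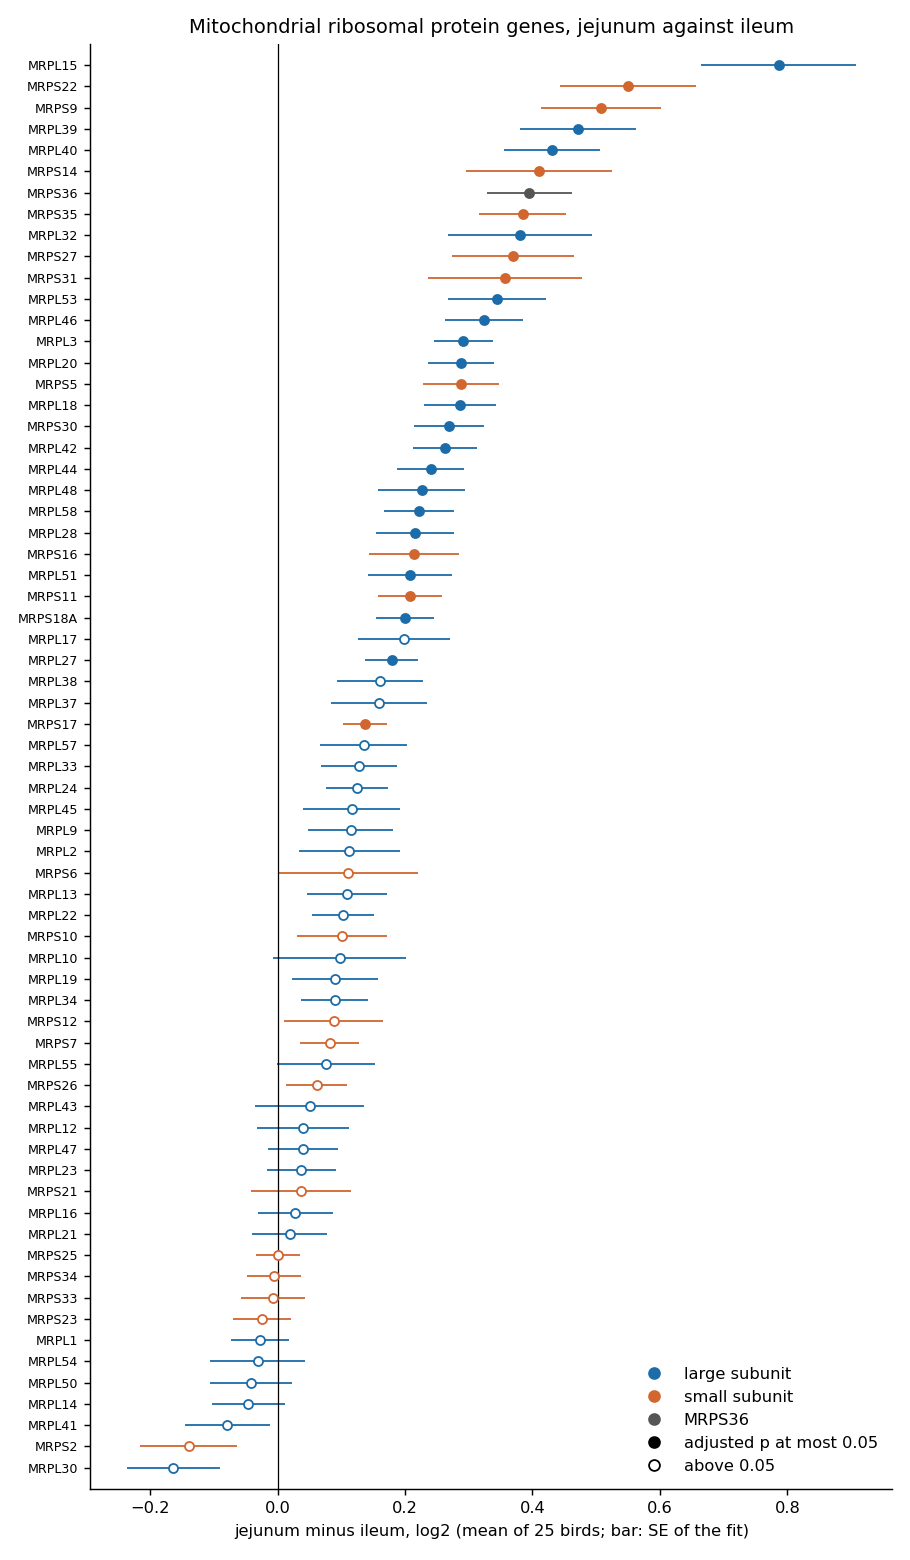
Each row is 1 of the 67 genes and the axis is its jejunum minus ileum difference in log2 units, with the SE of the paired fit as a bar. Filled points have an adjusted p of at most 0.05: 29 genes, all to the right of 0, from MRPL15 at 0.79 at the top.

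The segment difference was uneven over diets and batches. Within single diets (5 birds each), the median difference of the 67 genes was -0.09 in LPC-low, 0.24 in LPC-high, 0.19 in lysolecithin-low, 0.37 in lysolecithin-high and 0.06 in control birds. The negative LPC-low median rested on birds in doubt: without them it was 0.10 in LPC-low (3 birds), 0.37 in lysolecithin-high (4 birds) and 0.08 in control birds (4 birds). In LPC-high birds 20 genes passed, where 7.45% of all probe sets did; 19 of them were higher in the jejunum, and MRPL30 was lower, by 0.44. MRPL15 alone passed in lysolecithin-low birds, where 2.26% of probe sets did, and no gene passed in the other diets, where at most 0.013% did. Of the batches, batch 2 had 16 genes past the test (8.63% of probe sets), while no probe set passed in batch 1 or batch 3; the medians were 0.12, 0.24 and 0.09 in batches 1, 2 and 3. All 4 birds in doubt were in batch 1 or 3 and on LPC-low, lysolecithin-high or control feed, where no gene passed. Batch or diet and these birds therefore cannot be told apart. Without the 4 birds in doubt 37 genes passed and the median was 0.17.

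Other genes of mitochondrial gene expression were described by lists of their own. In the jejunum against the ileum, 6 of 8 mitochondrial translation factors passed, all higher, led by GFM1, the mitochondrial elongation factor G (0.43 ± 0.05; limma adjusted p = 3.79e-06). Of 4 subunits of the mitochondrial ribosome that carry other names, AURKAIP1 (0.24) and PTCD3 (0.29) passed, and DAP3 and CHCHD1 did not. Of 23 genes of ribosome assembly and RNA maturation 10 were higher, among them MTG2, a GTPase of large-subunit assembly (0.65), and TRMT10C, a subunit of mitochondrial RNase P (0.40). Of 15 mitochondrial aminoacyl-tRNA synthetase genes 6 were higher, with YARS2 at 0.61. Of 11 genes of mitochondrial DNA maintenance and transcription 4 were higher, and 2 of 9 nuclear regulators of respiration were, a share close to the 19.9% of brighter genes called higher.

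Import and quality control genes were higher for 11 of 19, including the protease LONP1 (0.57) and AFG3L2 (0.24) and SPG7 (0.34), the subunits of the protease that cuts MRPL32. The mitochondrial ribosome makes the mitochondrially encoded subunits of the respiratory chain and ATP synthase. The list of their nuclear genes, which also holds assembly factors (NDUFAF and UQCC genes), had 38 of 76 genes higher and a median of 0.20. None of the genes of these 8 lists was called lower. Of 66 cytosolic ribosomal protein genes 3 were higher and 1 was lower (RPS27L, at -0.21), and the median was 0.03. Markers of other cells moved with the segment as well. Of 5 smooth muscle markers 4 were higher in the jejunum, where their mean level per array ran from 4.92 to 7.97, against 4.63 to 7.31 in the ileum. Of 6 fibroblast markers 2 were higher, with mean levels from 5.10 to 8.58 in the jejunum and from 4.70 to 7.94 in the ileum. Of 10 enterocyte markers 4 were higher and 3 lower, with mean levels from 11.7 to 12.4 in the jejunum and from 11.2 to 12.3 in the ileum. None of the 6 proliferation markers passed. The part of these markers in the result was not tested.

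In the jejunum, 2 mitochondrial ribosomal protein genes were higher on lysolecithin-high than on control feed, MRPL46 and MRPL15. No other of the 67 genes passed the test, where 0.829% of all probe sets were called and 0.167% were called higher. Differences ran from -0.16 to 0.99. They were above 0 for 62 of the 67 genes, against 59.5% of brighter genes, and their median was 0.26, against 0.07 over brighter genes. Pairs of the 67 genes had a median correlation of 0.59 between jejunum arrays, so the counts are not of separate observations. At an unadjusted p under 0.05, 27 genes (40.3%) were higher and none lower; 14.6% of brighter genes were higher and 7.18% lower. The median was 0.28, 0.20 and 0.39 within batches 1, 2 and 3, and 0.31 without the arrays in doubt. These batches held 1, 2 and 2 lysolecithin-high birds and 2, 2 and 1 control birds. Control replicate 2, in doubt, is in batch 1.

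MRPL46 is a large-subunit protein specific to mitochondria. Its jejunal signal was 8.44, 8.23, 8.39, 8.54 and 8.57 in the lysolecithin-high birds, against 7.73, 7.82, 7.82, 7.81 and 7.80 in the control birds. All 5 lysolecithin-high birds lay above all 5 control birds, and the control values lay close together. The means were 8.43 ± 0.14 in lysolecithin-high and 7.80 ± 0.04 in control birds (SD, n = 5 each). The fitted difference was 0.61 ± 0.12 (SE; 95% interval 0.36 to 0.87; limma adjusted p = 0.0197), and it was 0.64 (limma adjusted p = 0.0204) without the arrays in doubt. Its differences within batches 1, 2 and 3 were 0.66, 0.50 and 0.75, each from 1 or 2 birds per feed.

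MRPL15 had a larger difference and a wider spread. Its jejunal signal was 8.16, 7.68, 7.99, 8.13 and 8.41 in the lysolecithin-high birds, against 6.55, 6.94, 7.37, 6.81 and 7.49 in the control birds. Again the groups did not overlap. The highest control values, 7.37 and 7.49, came from replicates 3 and 5, whose segment scores were 4.85 and 5.01. Lysolecithin-high replicate 3, with a score of 1.82, read 7.99. The means were 8.07 ± 0.27 in lysolecithin-high and 7.03 ± 0.39 in control birds (SD, n = 5 each), and the fitted difference was 0.99 ± 0.21 (SE; 95% interval 0.55 to 1.42; limma adjusted p = 0.0274). Its other 2 probe sets gave 0.06 and 0.05 and did not pass, and the mean of the 3 gave 0.36 (limma adjusted p = 0.0939). Within batches 1, 2 and 3, with 1 or 2 birds per feed in each, the difference was 1.42, 0.75 and 0.78. Without the arrays in doubt the fitted difference was 0.98 (limma adjusted p = 0.0294).

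Both calls were close to the threshold. MRPL46 missed it without control replicate 3, 4 or 5 or lysolecithin-high replicate 1 (highest limma adjusted p = 0.0883), and MRPL15 without control replicate 1 or 4 or lysolecithin-high replicate 1, 3 or 4 (highest limma adjusted p = 0.113). Fitted on the 2 groups alone, MRPL46 had an adjusted p of 0.0638 and MRPL15 one of 0.0899 (limma).

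On the other diets no call was made for these genes in the jejunum. MRPL15 had 7.11, 6.52, 7.34, 6.60 and 7.56 in LPC-low birds, 7.43, 7.40, 8.00, 7.82 and 7.71 in LPC-high birds, and 7.38, 7.56, 8.13, 7.39 and 7.44 in lysolecithin-low birds. These ranges all overlapped that of the control birds. MRPL46 had 7.91, 7.76, 7.89, 7.61 and 8.06 in LPC-low birds, 7.84, 7.88, 8.29, 8.06 and 8.00 in LPC-high birds, and 7.95, 7.78, 8.66, 8.26 and 7.96 in lysolecithin-low birds. The 5 LPC-high birds all lay above the highest control bird, whose value was 7.82. They did so for MRPL42 as well, and for 1.97% of probe sets and 2.55% of brighter genes. The other ranges of MRPL46 overlapped that of the controls.

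**Figure D2:**
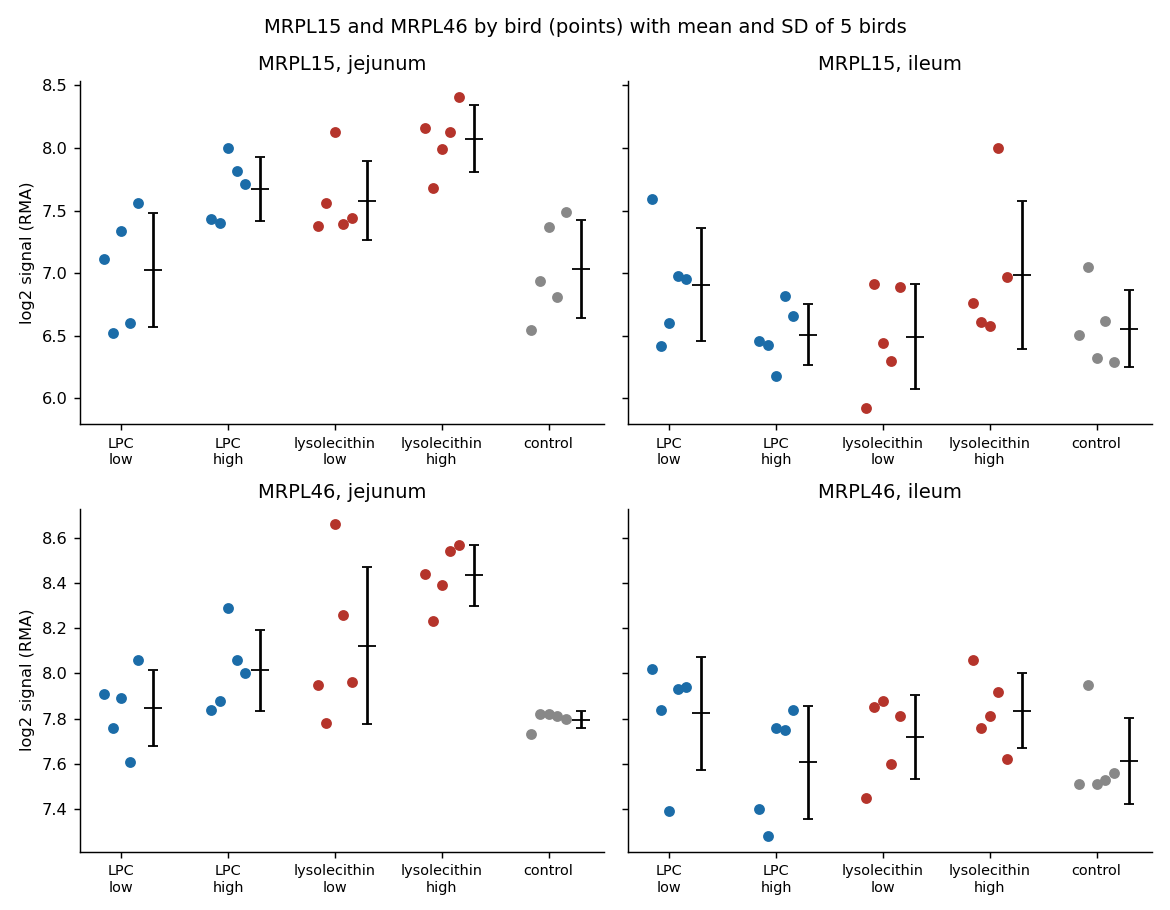
Log2 signals of MRPL15 (upper panels) and MRPL46 (lower panels) in the jejunum (left) and the ileum (right), with a point per bird and the mean and SD of 5 birds beside them. The lysolecithin-high points in the jejunum lie above all control points for both genes, and in the ileum the diets overlap.

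In 10 of the 67 genes all 5 lysolecithin-high jejunums lay above all 5 control jejunums, a share of 14.9%, against 1.4% of all probe sets and 2.72% of brighter genes; in none did all 5 lie below, where 1.83% of probe sets did. Besides MRPL15 and MRPL46 these were the large-subunit genes MRPL20, MRPL27, MRPL28, MRPL44, MRPL48 and MRPL53, the small-subunit gene MRPS22 and MRPS36, and these names were chosen after their values were seen. MRPS22 read 8.46, 8.17, 8.76, 8.70 and 8.12 in lysolecithin-high birds, against 7.65, 7.90, 7.80, 7.70 and 7.73 in control birds. The fitted difference of MRPS22 was 0.68 ± 0.26 (SE; limma adjusted p = 0.183), so it did not pass. MRPS36 read 9.32, 9.13, 9.31, 9.43 and 9.19 in lysolecithin-high birds, against 8.84, 8.79, 8.97, 8.81 and 8.96 in control birds, with a difference of 0.41 ± 0.15 (limma adjusted p = 0.175). MRPS5, a bacterial counterpart in the small subunit, had the next highest moderated statistic after the called genes, with 0.52 ± 0.17 (limma adjusted p = 0.128).

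The large subunit had 41 of 45 genes above 0 and the small subunit 20 of 21, each with a median of 0.26. All 28 genes specific to mitochondria had differences above 0, with a median of 0.29, and 33 of 38 genes with a bacterial counterpart did, with a median of 0.23. The genes with differences below 0 were MRPL30 (-0.16), MRPL34 (-0.10), MRPL21, MRPL24 and MRPS7, and MRPL30 and MRPL34 were among the 4 dim genes.

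**Figure D3:**
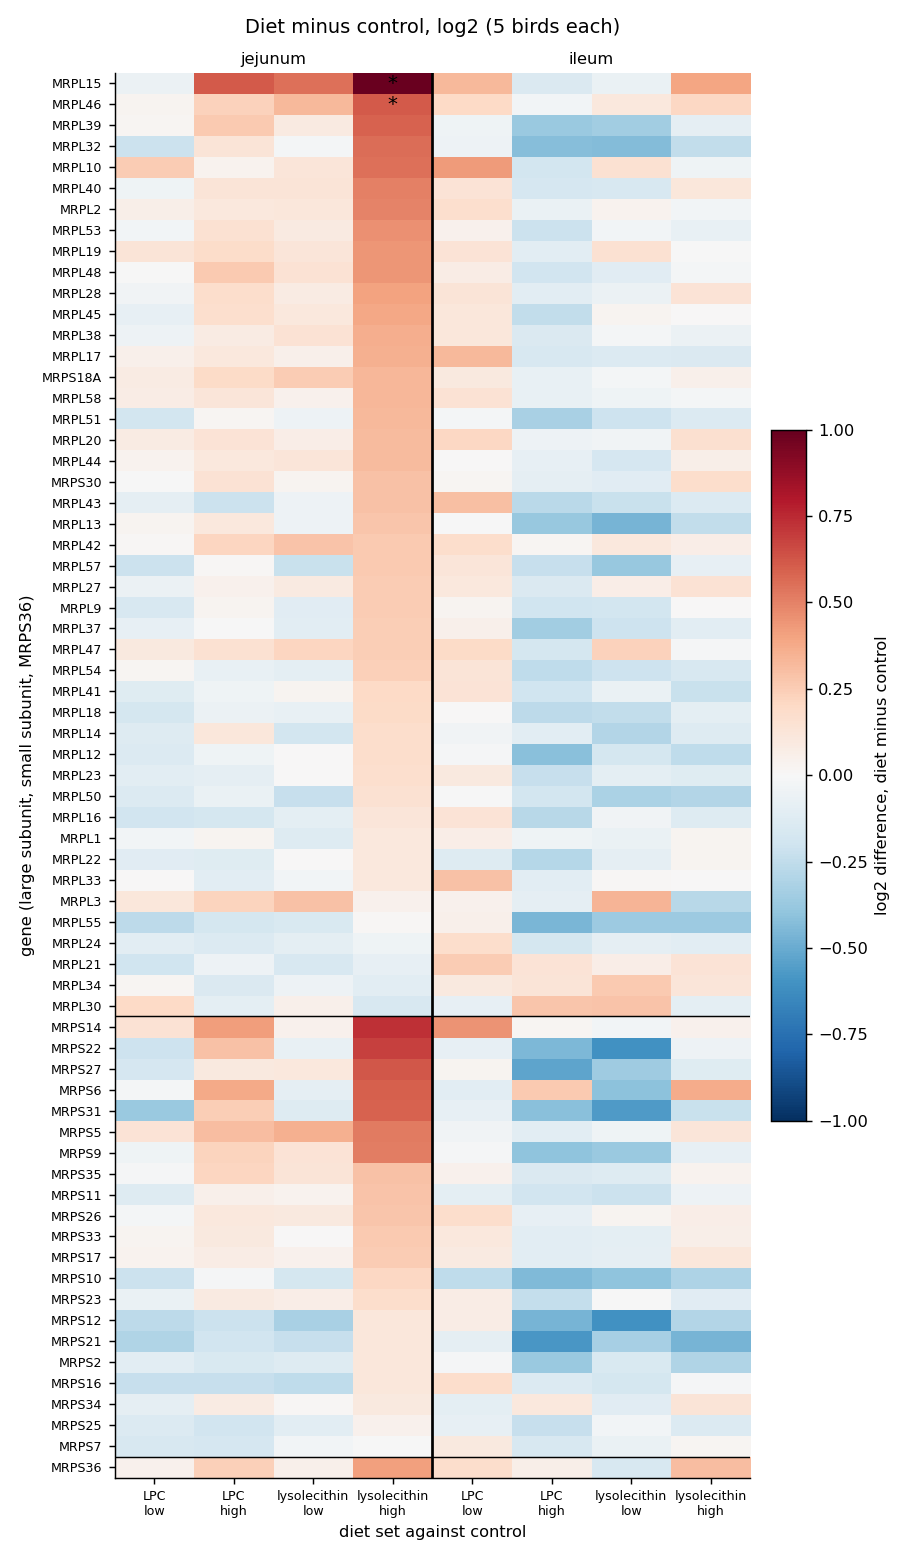
Log2 differences of each diet from the control for the 67 genes, by segment, with red for higher and blue for lower on the supplemented diet; a star marks the 2 called differences. Genes are ordered within large subunit, small subunit and MRPS36 by their lysolecithin-high difference in the jejunum, the column in which 62 of 67 genes are above 0.

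Other mitochondrial lists also had medians above 0 on lysolecithin-high feed in the jejunum, against control. The respiratory chain and ATP synthase had a median of 0.23 and 1 of 76 genes past the test, NDUFS4 of complex I (0.74 ± 0.18; limma adjusted p = 0.0498). Genes of ribosome assembly, of mitochondrial DNA maintenance, and of import and quality control each had a median of 0.27, the aminoacyl-tRNA synthetases 0.22 and the translation factors 0.12, with none past the test. The nearest were AURKAIP1 (0.33 ± 0.09; limma adjusted p = 0.0871) of the ribosome, TRMT10C (0.40 ± 0.11; limma adjusted p = 0.0841) and IARS2, an isoleucyl-tRNA synthetase (0.69 ± 0.18; limma adjusted p = 0.0796). Cytosolic ribosomal proteins had a median of 0.07, none of 66 past the test and none at an unadjusted p under 0.05, and the nuclear respiratory regulators had a median of 0.10.

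Other features of these jejunums had ranges that overlapped those of the control birds. The 6 fibroblast markers averaged 5.98 to 8.58 per array in lysolecithin-high birds and 5.82 to 6.63 in control birds, the 5 smooth muscle markers 5.55 to 7.97 and 5.17 to 6.88, and the 6 proliferation markers 6.30 to 8.04 and 6.35 to 7.52; none of these marker genes passed. The 5 ileum markers averaged 4.42 to 7.15 in lysolecithin-high and 4.47 to 12.2 in control birds, whose jejunum arrays included the one in doubt. The 5' minus 3' index, a mean difference between probe sets at both ends of 3 housekeeping transcripts and a sign of RNA quality, ran from -1.07 to -0.30 in lysolecithin-high and from -1.17 to -0.82 in control birds. All lysolecithin-high jejunums but replicate 4 had an index above the highest control value, so index and diet are hard to tell apart. With this index as a covariate MRPL46 was at 0.68 (limma adjusted p = 0.0270) and MRPL15 at 1.04 (limma adjusted p = 0.0453). The median was then 0.36. The segment score had a median of 4.96 in lysolecithin-high and 0.07 in control jejunums, so score and diet are hard to tell apart. The parts of RNA quality, the segment score and the cell markers were not tested.

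**Figure D4:**
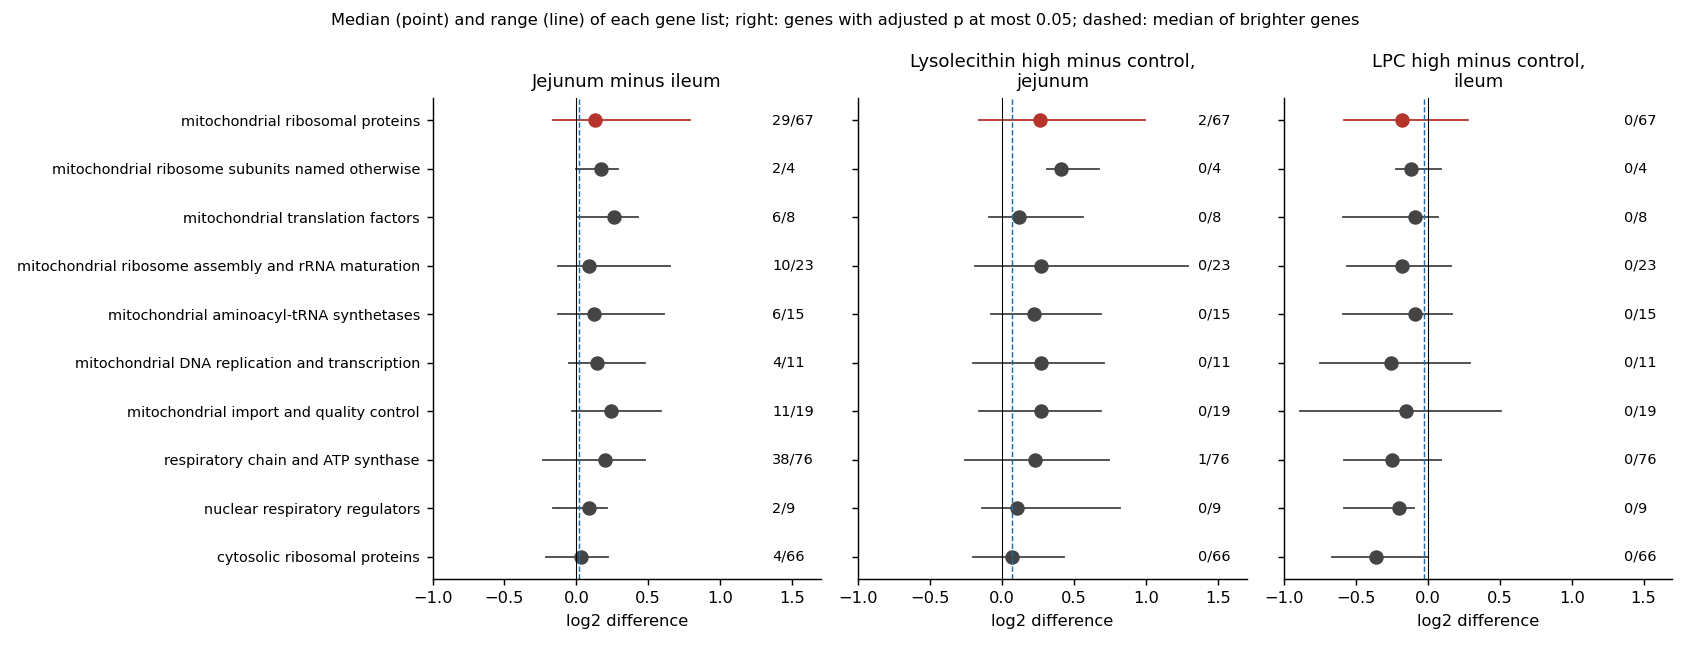
Median (point) and range (line) of log2 differences in the 67 genes, in red, and in 9 comparison lists, for jejunum minus ileum, lysolecithin-high minus control in the jejunum and LPC-high minus control in the ileum. The fractions count genes with an adjusted p of at most 0.05 and the dashed line is the median of brighter genes; the 67 genes have medians of 0.13, 0.26 and -0.18.

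No mitochondrial ribosomal protein gene passed on the other diets in the jejunum. The medians were -0.05 for LPC-low, 0.09 for LPC-high and 0.03 for lysolecithin-low feed against control, with 23, 44 and 36 of 67 genes above 0, against 48.0%, 52.0% and 52.5% of brighter genes. Without the arrays in doubt they were 0.08, 0.11 and 0.06, so the sign for LPC-low turned. Within batches 1, 2 and 3 the medians were 0.02, 0.00 and -0.13 for LPC-low, -0.04, 0.29 and 0.05 for LPC-high and -0.02, 0.16 and -0.15 for lysolecithin-low feed, so none kept 1 direction. At an unadjusted p under 0.05, 0, 1 and 4 genes were higher and none lower, where 11.8%, 13.1% and 12.6% of brighter genes reached that p in either direction. Over all probe sets 0.00261%, 0.112% and 0.0495% were called in these comparisons. The 5' minus 3' index ran from -0.60 to -0.35 in LPC-high jejunums and from -1.17 to -0.82 in control jejunums. These ranges did not overlap, so index and diet cannot be told apart for LPC-high feed. MRPL15 had the highest difference on LPC-high feed (0.62 ± 0.21; limma adjusted p = 0.239), and MRPL15 (0.55 ± 0.21; limma adjusted p = 0.403) and MRPL46 (0.33 ± 0.12; limma adjusted p = 0.394) led on lysolecithin-low feed. On LPC-low feed the moderated statistic was highest for MRPL30 (0.20) and lowest for MRPS21 (-0.30), a small-subunit bacterial counterpart. It was lowest for MRPS25 (-0.19) on LPC-high feed and for MRPS12 (-0.32), a counterpart of a bacterial decoding-site protein, on lysolecithin-low feed. A test for any difference among the 5 diets called none of the 67 genes, with 11 at an unadjusted p under 0.05, where 0.13% of probe sets were called; 13.8% of probe sets and 19.9% of brighter genes reached that p.

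The supplemented diets were compared in 4 pairs per segment, with adjustment over all probe sets within each pair: 2 pairs set lysolecithin against LPC at the same LPC level, and 2 set the high against the low level of 1 product. In the jejunum none of the 67 genes differed between lysolecithin-high and LPC-high feed, and no probe set on the array did (0.0%). Of the 67 genes 64 had differences above 0, against 59.7% of brighter genes, with a median of 0.23, or 0.22 without the arrays in doubt. As these genes varied together, that count is not one of separate observations. MRPL46 had a higher mean on lysolecithin-high than on LPC-high feed by 0.38 (95% interval 0.13 to 0.64; limma adjusted p = 0.797), and MRPL15 by 0.37 (95% interval -0.06 to 0.80; limma adjusted p = 0.797). At the low level, lysolecithin against LPC gave a median of 0.09 (-0.02 without the arrays in doubt), no called gene (0.0% of probe sets) and 0.61 for MRPL15 (95% interval 0.18 to 1.04).

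Between levels of 1 product, no gene passed in the jejunum either. Lysolecithin-high against lysolecithin-low feed gave a median of 0.28, with 63 genes above 0 (54.9% of brighter genes were) and 20 higher at an unadjusted p under 0.05 (12.3% of brighter genes were); 0.00261% of probe sets were called. MRPS22 led with 0.76 ± 0.26 (limma adjusted p = 0.247), while MRPL46 had 0.29 (95% interval 0.03 to 0.54) and MRPL15 0.44 (95% interval 0.005 to 0.87). LPC-high against LPC-low feed gave a median of 0.11 and 56 genes above 0 (53.7% of brighter genes were), with 0.0% of probe sets called. Without the arrays in doubt that median was 0.02, with 38 genes above 0. In this pair MRPL15 had 0.68 (95% interval 0.25 to 1.11, limma adjusted p = 0.807).

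In the ileum the diets did not separate mitochondrial ribosomal protein genes at the threshold, and the medians lay mostly below 0. Against control they were 0.08 for LPC-low, -0.18 for LPC-high, -0.10 for lysolecithin-low and -0.04 for lysolecithin-high feed, with 47, 8, 14 and 26 of 67 genes above 0, against 52.3%, 44.4%, 45.8% and 49.8% of brighter genes. Without the arrays in doubt the medians were 0.04, -0.18, -0.10 and -0.09. Within batches 1, 2 and 3 the LPC-high median was -0.27, -0.14 and -0.02, with 30 of 67 genes above 0 in batch 3, and the lysolecithin-low median was -0.20, -0.07 and -0.01. The 5' minus 3' index ran from -0.63 to -0.44 in LPC-high ileums and from -1.04 to -0.72 in control ileums. These ranges did not overlap, so index and diet cannot be told apart for LPC-high feed. In lysolecithin-high ileums the index ran from -0.72 to -0.30 and met the control range only at its end, so index and diet are hard to tell apart there. The part of RNA quality was not tested. None of the 67 genes passed, and 0.0313%, 0.0%, 0.875% and 0.216% of all probe sets did. On LPC-high feed 13 genes were lower and 1 higher at an unadjusted p under 0.05, against 8.05% of brighter genes lower and 4.71% higher. On lysolecithin-low feed 8 were lower and 3 higher, against 12.8% and 8.67%, and on LPC-low and lysolecithin-high feed 2 genes each reached that p, where 12.8% and 9.23% of brighter genes did.

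MRPL13, the counterpart of a bacterial large-subunit protein that joins early in assembly, came closest on lysolecithin-low feed. Its ileal signal was 8.30, 8.87, 8.67, 8.63 and 8.72 in lysolecithin-low birds, against 9.02, 9.59, 9.00, 9.02 and 8.89 in control birds. All 5 lysolecithin-low birds lay below all 5 controls, as they did for 1.49% of probe sets and 2.38% of brighter genes. The difference was -0.47 ± 0.12 (limma adjusted p = 0.0636), and with only probe sets above the median signal tested the adjusted p was 0.0493 (limma). On LPC-high feed the lowest moderated statistics were those of MRPS21 (-0.58 ± 0.16, limma adjusted p = 0.269), MRPL55 (-0.46 ± 0.14), a large-subunit protein, and MRPL13 (-0.38 ± 0.12). In MRPS9 and MRPS23 all 5 LPC-high birds lay below all controls, where 1.14% of probe sets and 1.49% of brighter genes did so. MRPS21 (-0.47 ± 0.16) and MRPL55 (-0.36 ± 0.14) were also the lowest by that statistic on lysolecithin-high feed, and MRPS36 (0.31 ± 0.16) the highest. On LPC-low feed MRPL17, a bacterial counterpart, was highest by it (0.33 ± 0.14; limma adjusted p = 0.335).

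MRPL15 and MRPL46 had no call in the ileum. MRPL15 averaged 6.91 ± 0.45 in LPC-low, 6.51 ± 0.24 in LPC-high, 6.49 ± 0.42 in lysolecithin-low, 6.98 ± 0.59 in lysolecithin-high and 6.56 ± 0.31 in control birds (SD, n = 5 each). The lysolecithin-high birds read 6.76, 6.61, 6.58, 8.00 and 6.97, and the highest was replicate 4, the array with jejunal markers. MRPL46 averaged 7.82 ± 0.25 in LPC-low, 7.61 ± 0.25 in LPC-high, 7.72 ± 0.19 in lysolecithin-low, 7.83 ± 0.17 in lysolecithin-high and 7.61 ± 0.19 in control birds (SD, n = 5 each). These means differed by less than or about as much as the spread between birds.

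Between ileal diets, LPC-high against LPC-low feed gave the lowest median, -0.26 (-0.22 without the arrays in doubt), with 4 of 67 genes above 0, against 42.9% of brighter genes. No gene passed and no probe set did (0.0%). At an unadjusted p under 0.05, 26 genes were lower and 1, MRPL30, was higher, where 7.65% of brighter genes were lower. MRPS23 (-0.31 ± 0.08; limma adjusted p = 0.215) and MRPL24 (-0.35 ± 0.09; limma adjusted p = 0.225) had the smallest p. Without the arrays in doubt, which include 2 of the 5 LPC-low ileums, MRPL17 (-0.62, limma adjusted p = 0.0465) and MRPL30 (0.54, limma adjusted p = 0.0195) passed. Lysolecithin-low against LPC-low feed gave a median of -0.19, lysolecithin-high against LPC-high 0.14 and lysolecithin-high against lysolecithin-low 0.09, with no gene called, where 0.0365%, 0.0% and 0.00521% of probe sets were. The test for any diet in the ileum called none of the 67 genes (0.138% of probe sets were called), with 14 at an unadjusted p under 0.05, which 14.6% of probe sets and 20.8% of brighter genes reached.

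Each bird gave both segments, so the diet difference could be set between them. The median over the 67 genes of jejunum minus ileum was 0.48, 0.27, 0.33, 0.38 and 0.37 in lysolecithin-high birds, against 0.00, -0.04, 0.21, -0.02 and 0.15 in control birds. All 5 lysolecithin-high birds lay above all 5 control birds. Replicate 4 of the lysolecithin-high birds (0.38) and replicate 2 of the control birds (-0.04) are in doubt; without them the lysolecithin-high birds ran from 0.27 to 0.48 and the control birds from -0.02 to 0.21. LPC-high birds had 0.09 to 0.56, lysolecithin-low birds -0.10 to 0.66 and LPC-low birds -0.49 to 0.20, or -0.08 to 0.20 without those in doubt. No test of an unequal diet effect in the segments called a gene, where 0.00521% of probe sets were called; 26 of 67 genes had an unadjusted p under 0.05 (38.8%), against 10.3% of probe sets and 16.0% of brighter genes. Without the birds in doubt 7 genes did (10.4%), against 7.49% of brighter genes. The smallest p belonged to MRPS23 and MRPS27 (limma adjusted p = 0.342 and 0.348). For lysolecithin-high against control the jejunal difference exceeded the ileal one by a median of 0.35, with 62 of 67 genes above 0, against 58.8% of brighter genes; without the birds in doubt the median was 0.28, again with 62 above 0. No probe set was called for this contrast (0.0%), and MRPL13 led with 0.52 ± 0.16 (limma adjusted p = 0.333). The same median was 0.23 for LPC-high, 0.11 for lysolecithin-low and -0.14 for LPC-low feed, with 60, 54 and 10 genes above 0 and none called. Without the birds in doubt it was 0.21, 0.11 and -0.04, with 62, 57 and 25 above 0. The 5' minus 3' index was hard or impossible to tell apart from high-level feed in both segments, and its part was not tested.

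**Figure D5:**
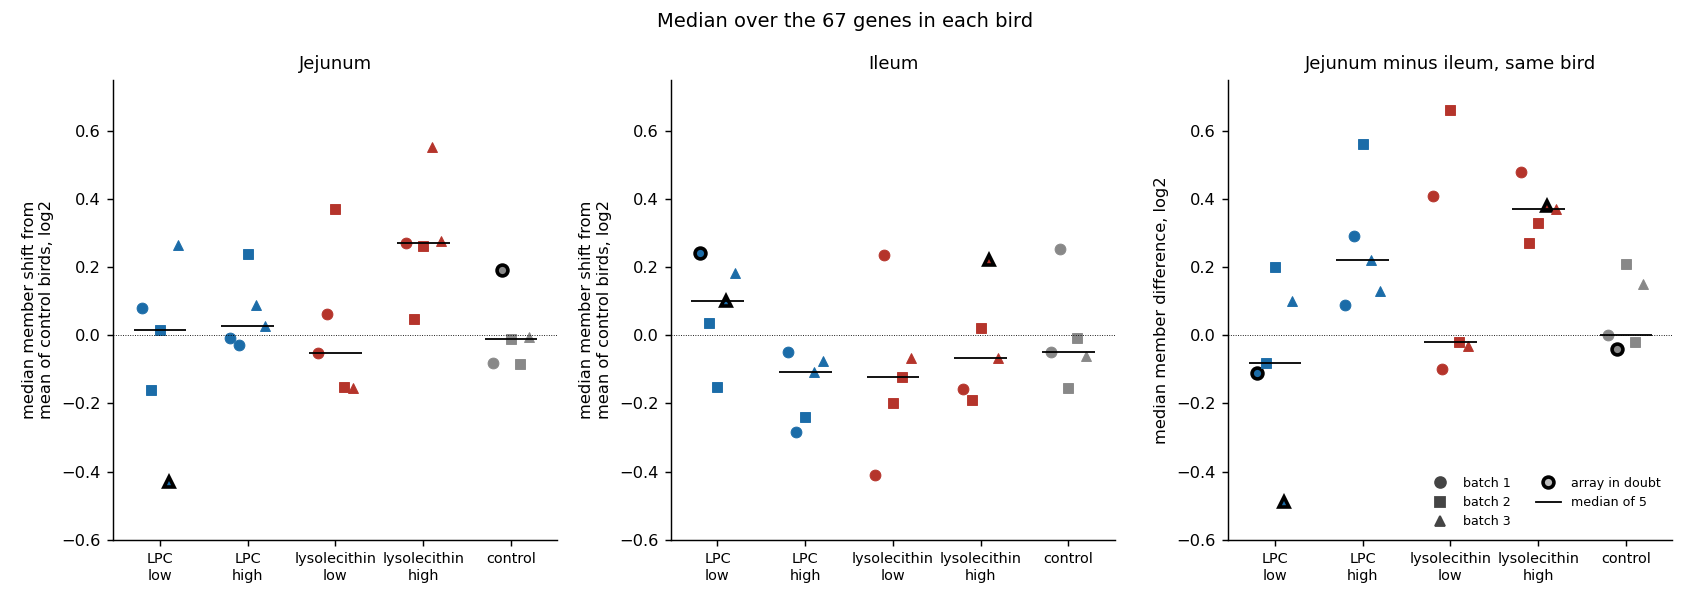
Each point is 1 bird and gives the median over the 67 genes of its log2 distance from the control mean in the jejunum (left) or the ileum (middle), or of its jejunum minus ileum difference (right); shapes mark batches, black rims arrays in doubt and lines the median of 5. The lysolecithin-high jejunums lie from 0.05 to 0.55 and the control jejunums from -0.08 to 0.19, so they overlap, while in the right panel the lysolecithin-high birds (0.27 to 0.48) lie above the control birds (-0.04 to 0.21).

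The 67 genes also varied together between birds of the same diet. After diet and batch were removed, the median correlation over pairs of these genes was 0.59 across the 25 jejunum arrays and 0.45 across the 25 ileum arrays. It was 0.02 and 0.03 over pairs of brighter genes, 0.63 and 0.49 in the respiratory chain list and 0.81 and 0.74 among cytosolic ribosomal proteins. These correlations are descriptions over arrays that share RNA quality, cell makeup and normalisation, and the arrays in doubt are among them. MRPL23 and MRPL9 followed the other genes most closely in the jejunum (median r of 0.76 each), and MRPL39 did in the ileum (0.65). MRPL30 ran against the others in both (-0.33 each), as did MRPL34 (-0.29 in the jejunum and -0.31 in the ileum), both dim genes. MRPS34 (-0.20) in the jejunum and MRPL21 (-0.17) in the ileum were the others below 0. MRPS11 and MRPL46 are neighbouring genes on chromosome 10 in the current chicken annotation. Their r was 0.53 in the jejunum and 0.64 in the ileum, and MRPL46 ranked 46 and 26 of 66 genes by its r with MRPS11.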

How the data were processed

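The authors deposited a log2 signal for every probe set of the Affymetrix chicken genome array, made with RMA; limma is also named in the submitters' processing notes, and no versions are given in the sources used here. They ran from 1.84 to 13.99 and were used without further normalisation. RMA equalises the arrays, so a change shared by most transcripts is not seen. Of 38535 probe sets, 153 control ones were left out and 38382 were tested without a filter. Genes were named from the platform annotation; all 67 symbols are current in RefSeq's chicken table.

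Each segment's 25 arrays were fitted with diet and batch in limma 3.58.1 (R 4.3.3), and segments with the bird as a block. The scripts were tested on simulated data. The number in the titles marks the bird, and of 25 birds 24 had arrays that matched each other best. The segment score subtracts the average of 15 ileum-biased genes from that of 15 jejunum-biased ones, picked on other birds; its midpoint was -1.80. No promoter or protein sequences were used here.

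The genes, comparison lists and alternatives were chosen with earlier results of these data known. Named genes come from those called in any diet comparison, the 3 highest and 3 lowest per diet, the 10 largest segment differences, MRPL15, MRPS36, genes with conflicting probe sets, and up to 3 called genes per list. Further genes are named beyond that rule, among them the other genes past the segment test and those with differences below 0. Genes whose groups did not overlap, and some with a small p or an extreme correlation, are named as well. The number of birds limits the precision.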

Additional observations from a re-analysis of the deposited data

Results flagged for a closer look

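Groups of 5 birds were searched for a bird far from the other 4 by Dixon's test, in the median shift of the 67 genes and in MRPL15 and MRPL46. Chance marks about 1 in 20 groups, and 6 of 30 were marked. In the jejunum of control birds the median shift was 0.192 in replicate 2, whose array is in doubt, and -0.084 to -0.004 in the others. MRPL15 read 8.00 in the ileum of lysolecithin-high replicate 4, whose array carried jejunal markers, against 6.58 to 6.97 in the others, and 8.13 in the jejunum of lysolecithin-low replicate 3, against 7.38 to 7.56. MRPL46 read 7.39 in the ileum of LPC-low replicate 3, against 7.84 to 8.02, and 7.95 in the ileum of control replicate 2, against 7.51 to 7.56. In the jejunum of control birds MRPL46 read 7.73 in replicate 1, against 7.80 to 7.82 in the others, a distance of less than 0.1.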

How the results depend on the processing

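The lysolecithin-high difference in the jejunum kept its direction in all settings, with medians from 0.20 to 0.39. Its count of 2 called genes was 1 (MRPL46) with all probe sets of a gene averaged, 0 with only the 2 groups compared, and 0 to 4 when 1 bird was left out: 0 without control replicate 4 or lysolecithin-high replicate 1, and 4 without lysolecithin-high replicate 2, when MRPL2 and MRPS5 joined. For lysolecithin-low against control in the ileum, the count of 0 was 1 with array weights (MRPL34), with only probe sets above the median signal (MRPL13) and with averaged probe sets (MRPL13), and 0 to 2 with 1 bird left out (2 without control replicate 5 or lysolecithin-low replicate 2). For lysolecithin-low against LPC-low in the ileum it was 1 (MRPL30) without the arrays in doubt and 0 to 7 with 1 bird left out (7 without lysolecithin-low replicate 2). For LPC-high against LPC-low in the ileum it was 2 with array weights (MRPL30 and MRPS23) and 2 without the arrays in doubt. The test for any diet called 1 gene with array weights (MRPL46) and 2 with the bird as a random replicate block (MRPL46 and MRPL15) in the jejunum, and 1 (MRPL30) with array weights or without the arrays in doubt in the ileum. The count of 29 for jejunum against ileum was 27 without the replicate block, 31 with a random one, 0, 16 and 0 in batches 1, 2 and 3, and, chosen after seeing the data, 0, 20, 1, 0 and 0 within LPC-low, LPC-high, lysolecithin-low, lysolecithin-high and control birds. With averaged probe sets the segment differences of MRPL3 (-0.03), MRPL20 (-0.01) and MRPS16 (-0.06) reversed. Medians within batches were also added later and rest on 1 or 2 birds per feed. They differed from the fitted medians, among others for LPC-high (0.29 in batch 2) and lysolecithin-low (-0.15 in batch 3) in the jejunum. In the ileum they did so for lysolecithin-high (-0.22 in batch 1, 0.14 in batch 3). Subsets hold fewer birds, and the batches and diets with a segment count of 0 each held birds in doubt. For the other settings the cause was not tested. The search for promoter motifs was not run.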

Other observations

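Cytosolic ribosomal protein genes had low values in the ileum of LPC-high birds. Against control, 51 of 66 had lower signals at an unadjusted p under 0.05. At that p 5.42% of all probe sets and 8.05% of brighter genes were lower. The median difference of the cytosolic genes was -0.36, against -0.18 for the mitochondrial ribosomal protein genes and -0.25 for the respiratory chain and ATP synthase genes. The 66 genes varied together between ileum arrays (median r of 0.74), so they are not separate observations. None of these genes passed after adjustment, and no probe set on the array did. The 5' minus 3' index ran from -0.63 to -0.44 in these ileums and from -1.04 to -0.72 in control ileums. Index and diet therefore cannot be told apart, and the part of RNA quality was not tested.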
